A study of Rattus norvegicus with 18 samples.

Results

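Whole lungs of rats that had breathed cigarette smoke for 2 weeks were compared with lungs of rats that had breathed fresh air for the same time. The comparison rests on 6 of the 18 samples of the study, all those whose title names 2 weeks; the others come from 7 and 13 weeks. Rats (Rattus norvegicus) were exposed by the nose only, 2 times a day for 1 hour each with a 30 min break of fresh air, on 5 days a week. The low-dose groups received smoke with 300 µg of total particulate matter (TPM) per litre and the high-dose groups 600 µg TPM per litre, and control rats received conditioned fresh air. Lungs were taken when 2, 6 or 20 hours had passed since the last exposure. At 2 weeks there were thus 3 low-dose samples, 3 high-dose samples and 3 control groups. Each group was a pool of equal amounts of total RNA from 4 rats, so a value describes a pool and not a single animal, and no combination of dose and hours had a replicate. The low-dose and the high-dose pool of an hour were each set against the same control pool. The strain, sex and age of the rats were not given in the sources used here.

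Cigarette smoke carries polycyclic aromatic hydrocarbons, which bind the aryl hydrocarbon receptor (AhR) and so switch on enzymes that oxidise them, Cyp1a1 above all. Its oxidants and electrophiles release the transcription factor NRF2, which drives genes of quinone reduction, glutathione synthesis and iron handling. In the lung, airway and alveolar epithelium and resident macrophages are the first cells to meet smoke, and both secrete complement proteins, acute phase proteins and chemokines that draw further leukocytes from the blood.

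The measured quantity was the log2 ratio of smoke over air on 2-colour PIQOR arrays, 2 of them per sample. A value of 0 means the same level as in air and a value of 1 means 2 times that level. Of 4616 named genes on the arrays, a 2-week sample had a value for 3919 to 4583, and 3681 genes had a value in all 6. The number of arrays limits the precision, and a ratio alone tells neither how far a spot stood above background nor whether the markers of a cell type were present in the lung, since no signal intensities were analysed. The median over genes lay between -0.01 and 0.01 in each of the 6 samples. Smoke carried the same dye in every sample, so a preference of a gene for that dye is part of each value against air, and cancels between doses and between weeks. The direction of the ratio, smoke over air, follows from the dyes named for the samples, as the table itself states none.

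After 2 weeks, 18 of 3681 genes were higher than in air (0.489%) and 2 were lower (0.0543%), by limma with a Benjamini-Hochberg adjusted p under 0.05. The rises were led by the siderophore-binding protein Lcn2 (3.07-fold), complement C3 (2.78-fold), the secreted phosphoprotein Spp1 (2.62-fold) and Cxcl1, an attractant of neutrophils (2.21-fold). The falls were those of the matrix protein Spon2 and the transcription factor Nfe2. For each gene the values of both doses were averaged at each hour, and the mean of the 3 hours was tested against 0. The spread behind each p is therefore that between hours, which holds error between pools as well as real change with time. An unadjusted p under 0.05 was found for 444 genes (12.1%). Where the spread was taken from all 9 pairs of samples of the study with hours as a covariate, 106 of 3560 genes passed, 78 higher and 28 lower, and all 20 genes were among them. Without the samples of 2, 6 or 20 hours, 2, 4 and 3 genes passed, and Lcn2 was the only gene to pass each time. At the high dose alone, 4 of the 20 genes passed (Lcn2, Cxcl1, Kng2 and Lgals3), and at the low dose alone 0. Without the high-dose sample of 20 hours, 2 passed, without the low-dose sample of 2 hours 4, and without the high-dose sample of 6 hours 6. In pooled tissue, fewer cells of a type and less RNA per cell cannot be told apart.

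**Figure D1:**
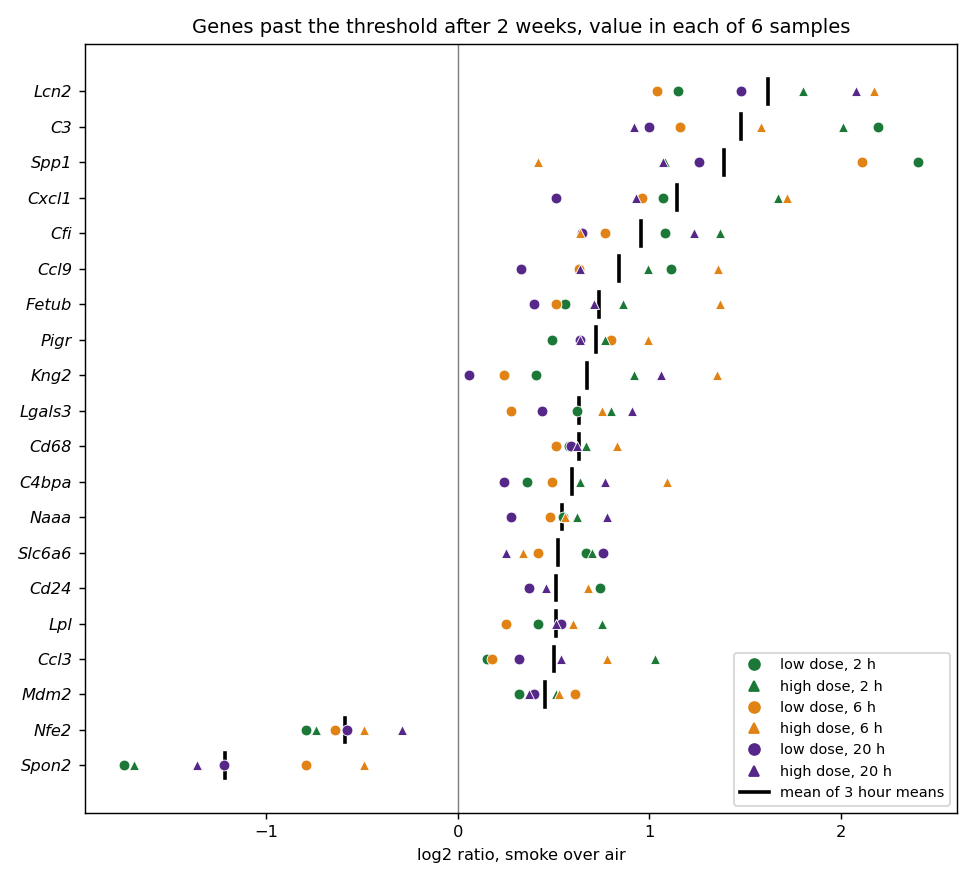
Log2 ratios of smoke over air (horizontal axis) in each of the 6 samples of 2 weeks, for the 18 genes higher and the 2 genes lower than in air; circles are the low dose, triangles the high dose, colours the hours, and the bar is the mean of the 3 hour means. All 20 genes lie on 1 side of air in every sample, and Lcn2 has its 3 high-dose values at 1.80 to 2.17, above its 3 low-dose values at 1.04 to 1.48.

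The acute phase and complement genes held 7 of the 18 rises. In what follows, values at a dose are given in the order 2, 6 and 20 hours. Lcn2, which starves bacteria of iron, stood at 1.15, 1.04 and 1.48 at the low dose and at 1.80, 2.17 and 2.08 at the high dose. It rose by 1.62 ± 0.08 (limma's moderated SE, adjusted p = 0.000205). Every high-dose value lay above every low-dose value, and no hour stood out. C3, the central protein of the complement cascade, stood at 2.19, 1.16 and 1.00 at the low dose and at 2.01, 1.58 and 0.92 at the high dose. It rose by 1.48 ± 0.18 (limma adjusted p = 0.0159), and did not pass with a robust prior (adjusted p = 0.136). Its values were highest at 2 hours and lowest at 20 hours at both doses. The protease Cfi, which cleaves activated C3, stood at 1.08, 0.77 and 0.65 and at 1.37, 0.64 and 1.23, and rose by 0.96 ± 0.10 (adjusted p = 0.0119).

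The other 4 rises among these genes were smaller. Pigr, the receptor that carries immunoglobulins across epithelium, stood at 0.49, 0.80 and 0.64 at the low dose and at 0.77, 0.99 and 0.64 at the high dose, and rose 1.65-fold (0.72 ± 0.08, limma adjusted p = 0.0119). It was the most even of the 4 over the samples. Fetub of the fetuin family rose 1.66-fold (0.735 ± 0.09), the kininogen Kng2 1.59-fold (0.67 ± 0.07) and the complement regulator C4bpa 1.51-fold (0.60 ± 0.08). The call of Kng2 was lost with the 6 samples and the control pool as a block (limma adjusted p = 0.101) and with the spread pooled over weeks (adjusted p = 0.0595). Each of these 3 had its highest value in the high-dose sample of 6 hours, at 1.37, 1.35 and 1.09. Of 21 genes of this list on the arrays, 18 were tested, 7 rose and 0 fell, where 0.489% of all genes tested rose. Of these 18 genes, 9 were above air in all 6 samples, where 5.51% of all genes tested were, and 0 were below air in all 6. The members of this and the other lists were chosen with earlier results of these data known, so counts within a list are not an independent test. The list median was 0.29 against -0.003 for all genes tested. Haptoglobin Hp stood at 0.48 ± 0.08 and missed the threshold (adjusted p = 0.0534), with its only value below air, -0.15, in the low-dose sample of 20 hours. The C1q chain C1qa stood at 0.31 and was above air in all 6 samples. A2m, C4a and the fibrinogen chain Fgg had means of -0.05, -0.12 and -0.04.

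Among chemokines and cytokines, 3 of 11 tested genes rose and 0 fell, out of 20 on the arrays, where 0.489% of all genes tested rose. Cxcl1, which draws neutrophils, stood at 1.07, 0.96 and 0.51 at the low dose and at 1.67, 1.72 and 0.93 at the high dose. It rose by 1.14 ± 0.13 (limma adjusted p = 0.0119), and at each dose its lowest value was that of 20 hours. Ccl9, a chemokine for myeloid cells, stood at 1.11, 0.63 and 0.33 and at 0.99, 1.36 and 0.64, and rose by 0.84 ± 0.11 (adjusted p = 0.0255). Ccl3, which draws monocytes, stood at 0.15, 0.18 and 0.32 at the low dose and at 1.03, 0.78 and 0.54 at the high dose, and rose by 0.50 ± 0.07 (adjusted p = 0.0255). The call of Ccl3 was lost with the pool as a block (adjusted p = 0.0910) and with the spread pooled over weeks (adjusted p = 0.106). Its doses did not overlap. The growth factor Csf2 stood at 0.43 ± 0.07 (adjusted p = 0.0614). The monocyte attractant Ccl2 stood at 0.09 ± 0.09 and Ccl5 at -0.31 ± 0.12. Tnf, Il6, Il1a, Il10, Cxcl10 and 4 further genes of the list had fewer than 6 values and were not tested.

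Promoter sequences of Cxcl1 and Ccl9 are shown because these were the called genes whose start region held a 10-base motif of the kind bound by NF-kB, the factor that controls many inflammatory genes. The letters searched were GGGNNTTTCC on both strands, in the 150 bases before the start of each gene in RefSeq (assembly GRCr8). Of the 20 called genes, 15 had a promoter sequence and 2 of those held the motif, against 0.795% of 33469 rat promoters of the same length. Both windows lie on the minus strand, at chr14:17479322-17479471 for Cxcl1 and chr10:68868878-68869027 for Ccl9, and are written 5′ to 3′ along the gene with the matches in capitals.
Cxcl1: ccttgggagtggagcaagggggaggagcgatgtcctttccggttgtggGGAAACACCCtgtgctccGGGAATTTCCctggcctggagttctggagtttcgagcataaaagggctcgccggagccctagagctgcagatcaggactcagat
Ccl9: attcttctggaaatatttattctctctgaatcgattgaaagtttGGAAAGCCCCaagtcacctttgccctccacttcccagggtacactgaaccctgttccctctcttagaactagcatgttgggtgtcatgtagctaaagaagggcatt
Cxcl1 held 2 matches, 102 to 93 bases before the start on the opposite strand and 84 to 75 bases before it on the gene's own strand. Ccl9 held 1, on the opposite strand 106 to 97 bases before the start. A match describes letters in a window and does not show binding.

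Genes of macrophages and of the lysosome stood mostly above air. Of 18 tested macrophage markers, out of 19 on the arrays, 3 rose and 0 fell, where 0.489% of all genes tested rose. In all 6 samples 8 were above air and 2 below, against 5.51% and 4.29% of all genes tested. The list median was 0.285. Spp1, or osteopontin, a secreted adhesion protein of activated macrophages, stood at 2.40, 2.11 and 1.26 at the low dose and at 1.08, 0.42 and 1.07 at the high dose. It rose by 1.39 ± 0.11 (limma adjusted p = 0.00403), and every low-dose value lay above every high-dose value. Cd68, a glycoprotein of the macrophage endosome, stood between 0.51 and 0.83 in all 6 samples and rose by 0.63 ± 0.07 (adjusted p = 0.0119). Its values differed little between hours and doses. The lectin Lgals3 stood at 0.62, 0.28 and 0.44 and at 0.80, 0.75 and 0.91, and rose by 0.63 ± 0.07 (adjusted p = 0.0136).

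Other macrophage markers did not pass. The acid phosphatase Acp5 stood at 0.51 ± 0.09, and the lysosomal proteases Ctsd and Ctsb at 0.47 ± 0.09 and 0.395 ± 0.08. The elastase Mmp12 stood at 0.24 ± 0.08 (limma adjusted p = 0.280). Adgre1, a macrophage surface receptor, went the other way at -0.43 ± 0.08 (adjusted p = 0.0790) and was below air in all 6 samples, as was the growth factor receptor Csf1r at -0.17. Of 16 lysosomal genes, 0 passed by limma, 7 were above air in all 6 samples and 14 had a mean above 0, with a median of 0.15. Of all 3681 genes tested, 5.51% were above air in all 6 and 1795 had a mean above 0. The protease Ctsa stood at 0.38 ± 0.09 and the membrane protein Cd63 at 0.31 ± 0.07. Outside the lists, and chosen after its values were seen, the lysosomal amidase Naaa rose by 0.545 ± 0.07 (adjusted p = 0.0159), with values from 0.28 to 0.78.

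The remaining rises came from other lists or from none. Lpl, the lipoprotein lipase, stood at 0.42, 0.25 and 0.54 at the low dose and at 0.75, 0.60 and 0.51 at the high dose, and rose by 0.51 ± 0.07 (limma adjusted p = 0.0255, and 0.0595 with the spread pooled over weeks). It was the only call among 27 tested lipid and cholesterol genes, whose median was 0.08. The fatty acid binding protein Fabp5 stood at 0.38, the cholesterol exporter Abcg1 at 0.29 and the scavenger receptor Cd36 at 0.27. Mdm2, the ubiquitin ligase of p53, stood between 0.32 and 0.61 and rose by 0.46 ± 0.07 (adjusted p = 0.0488), the largest adjusted p of the 20 genes. Its call was lost whichever of the 6 samples or 3 hours was left out. It was the only call among 22 tested genes of p53, DNA damage and apoptosis. Bax stood at 0.02, Ccng1 at -0.21 and Gadd45a at -0.02, and Cdkn1a had fewer than 6 values. The taurine transporter Slc6a6 and the surface glycoprotein Cd24, both chosen after their values were seen, rose by 0.52 ± 0.08 and 0.51 ± 0.07, and did not pass with the spread pooled over weeks (limma adjusted p = 0.167 and 0.0595).

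Falls were fewer and, apart from Spon2, small. Spon2, a secreted matrix protein that also binds microbial surfaces, stood at -1.74, -0.79 and -1.22 at the low dose and at -1.69, -0.49 and -1.36 at the high dose. It fell 2.32-fold (-1.22 ± 0.17, limma adjusted p = 0.0255), and did not pass with a robust prior (adjusted p = 0.124). Its values were nearest to air at 6 hours at both doses. Nfe2, a transcription factor of the blood platelet lineage, stood at -0.79, -0.64 and -0.58 and at -0.74, -0.49 and -0.29, and fell by 0.59 ± 0.08 (adjusted p = 0.0255), with its value nearest to air in the high-dose sample of 20 hours.

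The 11 largest further means among genes below air in all 6 samples, the last of them tied, missed the threshold, with limma adjusted p from 0.0614 to 0.207. The collagen cross-linking enzyme Loxl1 stood at -0.61 ± 0.11, with its lowest values, -0.97 and -0.92, at 2 hours. The neutrophil protein Retnlg stood at -0.50, the platelet chemokine Pf4 at -0.48, the anchoring protein Akap12 at -0.48, Septin5 at -0.46 and Lrrn3 at -0.45. The collagen Col3a1 stood at -0.43, Adgre1 at -0.43, the membrane protein Mal at -0.42, and the macrophage lectin Clec10a and the receptor component Ramp1 both at -0.40. Of 29 tested genes of the extracellular matrix and its proteases, out of 33 on the arrays, Spon2 was the only call. Means below 0 were found for 24 of the 29, and for 1871 of all 3681 genes tested. In all 6 samples 9 of the 29 were below air, where 4.29% of all genes tested were. The list median was -0.14. The collagens Col4a1, Col1a1 and Col5a2 stood at -0.355 ± 0.07, -0.34 ± 0.19 and -0.33. Col1a1 varied most, from -1.18 in the high-dose sample of 6 hours to 0.36 in that of 20 hours. Above air in all 6 samples were the growth factor Ccn2 (0.405), the urokinase receptor Plaur (0.40), Mmp12 and the inhibitor Timp1 (0.15).

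The xenobiotic enzymes had the highest single values of the 6 samples, and these were tied to the hours. Cyp1a1 stood at 4.91, 4.53 and -1.36 at the low dose and at 5.05, 4.00 and -1.09 at the high dose. Its mean of 2.67 ± 1.00 did not pass (limma adjusted p = 0.338), since the samples of 20 hours lay below air and the others far above it. Without the samples of 20 hours it passed at 4.62 (adjusted p = 0.0129), and with the spread pooled over the study and hours as a covariate it passed too (adjusted p = 3.42e-05). Aldh3a1, which oxidises reactive aldehydes, stood at 6.23, 2.25 and 0.12 and at 5.57, 1.94 and 0.70. Its mean was 2.80 ± 0.83 (adjusted p = 0.223, and 1.07e-08 with hours as a covariate). It was above air in all 6 samples. Its values at 6 hours lay more than 3 units under those at 2 hours, a gap that Cyp1a1 showed only at 20 hours. The quinone reductase Nqo1 stood at 2.68, 1.55 and 0.00 and at 3.05, 1.70 and 0.40, with a mean of 1.56 ± 0.40 (adjusted p = 0.165, and 8.87e-08 with hours as a covariate).

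**Figure D2:**
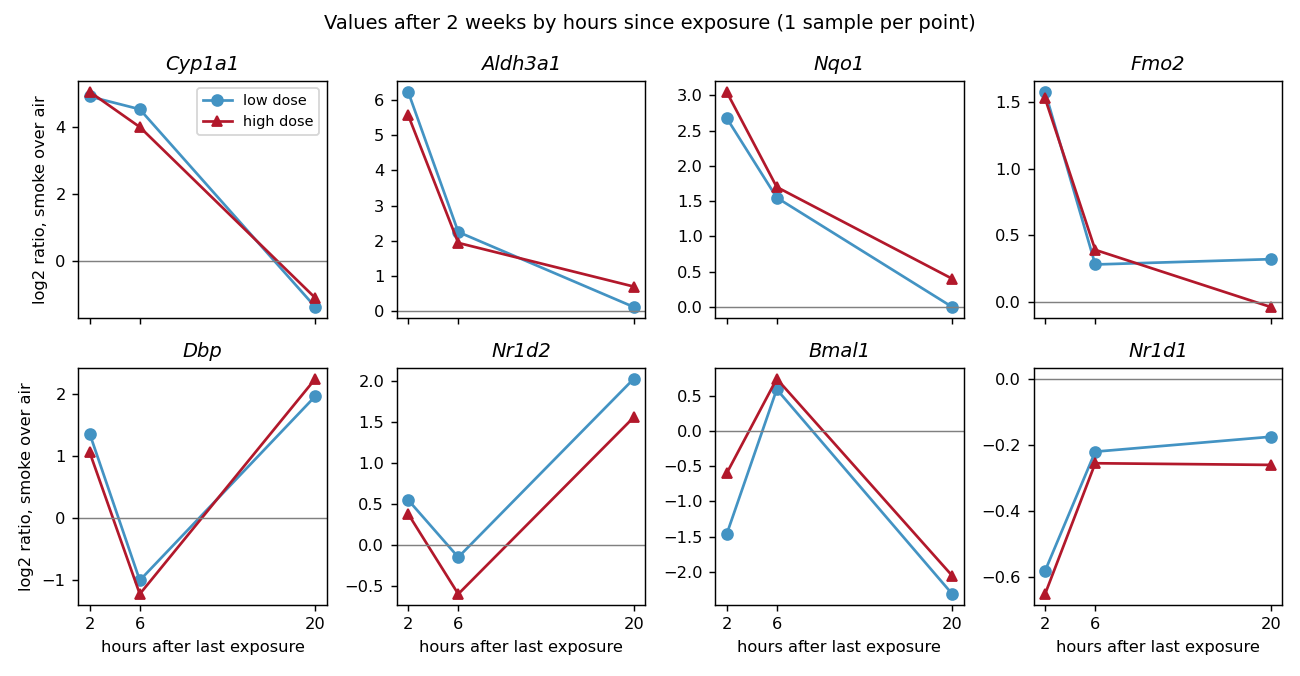
Log2 ratio of smoke over air (vertical axis) against the hours after the last exposure for 4 xenobiotic enzymes (top) and 4 clock genes (bottom) after 2 weeks; blue circles are the low dose, red triangles the high dose, and each point is 1 sample. Cyp1a1, Aldh3a1, Nqo1 and Fmo2 have their highest values at 2 hours and their lowest or near-lowest at 20 hours, while Dbp and Nr1d2 are lowest at 6 hours and highest at 20 hours and Bmal1 is the reverse.

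Further enzymes of this kind stood lower and followed the hours less. Among 7 tested AhR targets and partners, out of 10 on the arrays, 0 passed and all 7 had means above 0, as did 1795 of all 3681 genes tested. The list median was 0.75 at 2 hours, 0.41 at 6 hours and 0.02 at 20 hours. The glucuronosyltransferase Ugt1a6 stood at 0.41 ± 0.10 (limma adjusted p = 0.168) and Cyp1b1, a cytochrome P450 of the same family as Cyp1a1, at 0.07 ± 0.09. Of 12 tested glutathione S-transferases 0 passed, with a median of 0.08. Gstp1 stood at 0.64, 0.56 and 0.26 at the low dose and at 0.96, 0.80 and 0.19 at the high dose, with a mean of 0.57 ± 0.11 (adjusted p = 0.0790), and Gsta2 at 0.30 ± 0.08. At the other end Gstm5 stood at -0.28. Of 20 tested other xenobiotic enzymes, out of 23 on the arrays, 0 passed. The flavin monooxygenase Fmo2 stood at 1.58 and 1.53 at 2 hours and between -0.04 and 0.39 later. Cyp4b1 (-0.35 ± 0.08), Cyp4a1, Fmo1 and the carboxylesterase Ces1d were below air in all 6 samples.

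The start regions of Nqo1, Ugt1a6 and Gstp1 are shown because each held 1 of the motifs searched. The core of the AhR binding element was searched as GCGTG and an antioxidant element as TGACTCAGC, on both strands of the 150 bases before the RefSeq start (GRCr8). GCGTG was found in 18.8% of all rat promoters of this length and TGACTCAGC in 0.236%. The windows are chr19:52220268-52220417 on the minus strand for Nqo1, chr9:96194868-96195017 on the plus strand for Ugt1a6 and chr1:210769706-210769855 on the minus strand for Gstp1, written 5′ to 3′ along the gene with the match in capitals.
Nqo1: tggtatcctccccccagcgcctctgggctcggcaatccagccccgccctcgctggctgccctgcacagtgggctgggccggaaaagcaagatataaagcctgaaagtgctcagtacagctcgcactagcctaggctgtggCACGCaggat
Ugt1a6: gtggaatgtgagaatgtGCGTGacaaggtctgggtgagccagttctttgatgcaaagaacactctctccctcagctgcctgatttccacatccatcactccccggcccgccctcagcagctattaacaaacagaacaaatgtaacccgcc
Gstp1: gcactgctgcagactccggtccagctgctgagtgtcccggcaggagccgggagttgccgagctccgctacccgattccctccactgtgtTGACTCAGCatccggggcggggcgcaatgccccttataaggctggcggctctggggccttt
The match of Nqo1 lies on the opposite strand 10 to 6 bases before the start, that of Ugt1a6 133 to 129 bases and that of Gstp1 61 to 53 bases before it. Among the 15 called genes with a promoter sequence, GCGTG was found in C4bpa and Slc6a6 and TGACTCAGC in 0. No match says only that these letters are not in this window.

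The mixed list of NRF2 and oxidative stress defence genes leaned upward without a call. Of 25 tested, out of 27 on the arrays, 0 passed by limma, 23 had a mean above 0 and 9 were above air in all 6 samples. Of all 3681 genes tested, 1795 had a mean above 0 and 5.51% were above air in all 6. The list median was 0.22, from 0.46 at 2 hours through 0.17 at 6 hours to 0.11 at 20 hours. The mitochondrial superoxide dismutase Sod2 stood at 0.38, 0.18 and 0.12 at the low dose and at 0.85, 1.10 and 0.39 at the high dose (mean 0.50 ± 0.09, adjusted p = 0.0656). The thioredoxin reductase Txnrd1 stood at 0.445 ± 0.10, the metallothionein Mt1 at 0.45 ± 0.08 and Gclc, which makes the precursor of glutathione, at 0.37 ± 0.11. The haem oxygenase Hmox1 was well above air at 2 hours, at 0.72 and 1.07, and lay between -0.03 and 0.18 after that. Nfe2l2, which encodes NRF2 itself, stood at 0.64 and 0.86 at 2 hours and between -0.36 and -0.01 later. Catalase, Cat, stood at -0.19.

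Each hour can also be read alone, with no test, as the genes at least 2-fold from air at both doses. At 2 hours there were 11 such genes above air of 3881 with both values (0.283%) and 3 below (0.0773%). Those above were Aldh3a1, Cyp1a1, Nqo1, C3, Spp1, Fmo2, Ndrg4, Lcn2, Cxcl1, Cfi and Dbp, and those below were Spon2, S100a8 and S100a9. At 6 hours there were 5 of 3912 above (0.128%), namely Cyp1a1, Aldh3a1, Nqo1, Lcn2 and C3. The 3 below (0.0767%) were Ucp1 of brown fat, the muscle protein Csrp3 and Dbp. At 20 hours there were 5 of 4090 above (0.122%), namely Csrp3, Dbp, Nr1d2, Lcn2 and Spp1, and 4 below (0.0978%). Lcn2 was among those above at each hour, and Spp1 at 2 and 20 hours but not at 6 hours. Those below at 20 hours were Bmal1, Spon2, Cyp1a1 and the gelatinase Mmp9.

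Clock genes took different positions at the 3 hours. Dbp, a transcription factor driven directly by the clock, stood at 1.36, -1.0 and 1.96 at the low dose and at 1.06, -1.22 and 2.24 at the high dose. Bmal1, the activator at the core of the clock, stood at -1.47, 0.60 and -2.32 and at -0.60, 0.75 and -2.06. The order of the hours was the same at both doses for either gene, and against each control pool the sign of Bmal1 was opposite to that of Dbp. The repressor Nr1d2 stood at 2.03 and 1.56 at 20 hours and between -0.60 and 0.55 before that. The related Nr1d1 was below air in all 6 samples, from -0.65 to -0.175. Of 8 tested clock genes, out of 10 on the arrays, 0 passed in the mean over hours (Dbp 0.73 ± 0.49, limma adjusted p = 0.609; Bmal1 -0.85 ± 0.43, adjusted p = 0.484). With hours as a covariate both passed (adjusted p = 0.0422 and 0.00591). The time of day of exposure and of tissue collection is not given here, and its part in these values was not tested.

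None of the neutrophil genes passed in the mean over hours, and the alarmins S100a8 and S100a9 took different positions at the 3 hours. S100a8, a calcium-binding alarmin abundant in neutrophils, stood at -1.51, 0.08 and -0.76 at the low dose and at -1.89, 0.04 and -0.79 at the high dose (mean -0.81 ± 0.27, limma adjusted p = 0.280, and 0.000156 with hours as a covariate). Its partner S100a9 stood at -1.36, 0.26 and -0.67 and at -1.47, 0.93 and -0.17 (mean -0.41 ± 0.30, adjusted p = 0.635, and 0.114 with hours as a covariate). Both were well below air at 2 hours and at or above it at 6 hours. Of 10 tested neutrophil and mast cell markers, out of 13 on the arrays, 0 passed, and the list median was -0.24. Retnlg passed with the pool as a block (limma adjusted p = 0.0257) and with a robust prior (adjusted p = 0.0424), but not with hours as a covariate (adjusted p = 0.0716). Fcnb stood at -0.28, with -0.63 and -0.99 at 2 hours, the granule enzyme Mpo at 0.05, the chemokine receptor Cxcr2 at 0.22 and the mast cell protease Mcpt1 at -0.32.

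Lymphocyte markers lay slightly below air. Of 21 tested, out of 25 on the arrays, 0 passed by limma and 18 had a mean below 0, as did 1871 of all 3681 genes tested. The list median was -0.15. At the low dose that median was -0.01 and at the high dose -0.24. The transcription factor Tbx21 of type 1 T cells stood at -0.42 ± 0.10, the granzyme Gzma at -0.33 ± 0.08 and the T cell co-receptor Cd4 at -0.31 ± 0.09. The B cell genes Ms4a1 and Cd79b had their lowest values, -1.18 and -1.06, in the high-dose sample of 6 hours. Interferon and antigen presentation genes had a median of -0.10 with 0 of 9 called, from Irf7 at -0.37 ± 0.16 and Psmb8 at -0.29 ± 0.07 to the class II gene RT1-Da at 0.27 ± 0.07.

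The tested markers of the lung's own structure mostly differed little from air. The alveolar, airway and endothelial or smooth muscle lists held 20, 23 and 30 genes, of which 9, 4 and 23 were on the arrays. Of 9 alveolar, 4 airway and 20 endothelial or smooth muscle genes tested, 0 passed by limma, with medians of -0.04, 0.09 and -0.045. The surfactant protein Sftpa1 stood at 0.275 ± 0.07, the cilia regulator Foxj1 at 0.43 ± 0.07 (adjusted p = 0.0553), the basal cell keratin Krt5 at 0.14, the lipid enzyme Lpcat1 at -0.155, the pericyte receptor Pdgfrb at -0.25 ± 0.14 and VE-cadherin Cdh5 at -0.21 ± 0.10. Foxj1 passed with a robust prior (limma adjusted p = 0.0404) and with hours as a covariate (adjusted p = 0.0226). Striated muscle markers stood apart in single samples or at single hours. Of 10 on the arrays 8 were tested and 0 passed, and the list median was 0.32 at 2 hours, -0.16 at 6 hours and 0.26 at 20 hours. The cardiac actin Actc1 stood at -0.58 and -0.71 at 6 hours and at 1.32 in the high-dose sample of 20 hours, and myoglobin Mb at 1.00 in that sample. The natriuretic peptide Nppa stood at 2.16 in the high-dose sample of 2 hours, for a mean of 0.53 ± 0.25. Outside the list, and chosen after their values were seen, were the muscle protein Csrp3 and Ucp1 of brown fat. Csrp3 stood at -2.18 and -1.29 at 6 hours. At 20 hours it was at least 2-fold above air at both doses, at 4.07 in the high-dose sample. Ucp1 had values only at 6 hours, at -2.25 and -2.12. The part of muscle or fat in the samples in the results above was not tested. Of 4 blood genes 0 passed, and haemoglobin Hbb lay between -0.575 and 0.325.

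The remaining lists held few or no calls. Of 14 tested glucocorticoid-responsive genes Lcn2 was the only one called, and the median was 0.18. Tsc22d3 and Fkbp5, both induced by glucocorticoids, stood at 0.52 ± 0.11 and 0.50 ± 0.10, and the receptor Nr3c1 at -0.13. By limma, 0 of 13 immediate early genes, 0 of 20 cell cycle genes, 0 of 30 genes of the heat shock and unfolded protein responses, 0 of 18 genes of glycolysis and 0 of 13 reference genes passed, with list medians between -0.03 and 0.06. Ier3 and Zfp36 stood at 0.195, the mitotic kinase Cdk1 at -0.21, the cell cycle inhibitor Cdkn2c at -0.20, the chaperones Hspa2 and Hspb8 at 0.31 and 0.26, the glycolytic enzymes Aldoa and Eno1 at 0.30 and 0.14, and the reference genes Eef1a1 and Tubb5 at 0.38 and -0.26.

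**Figure D3:**
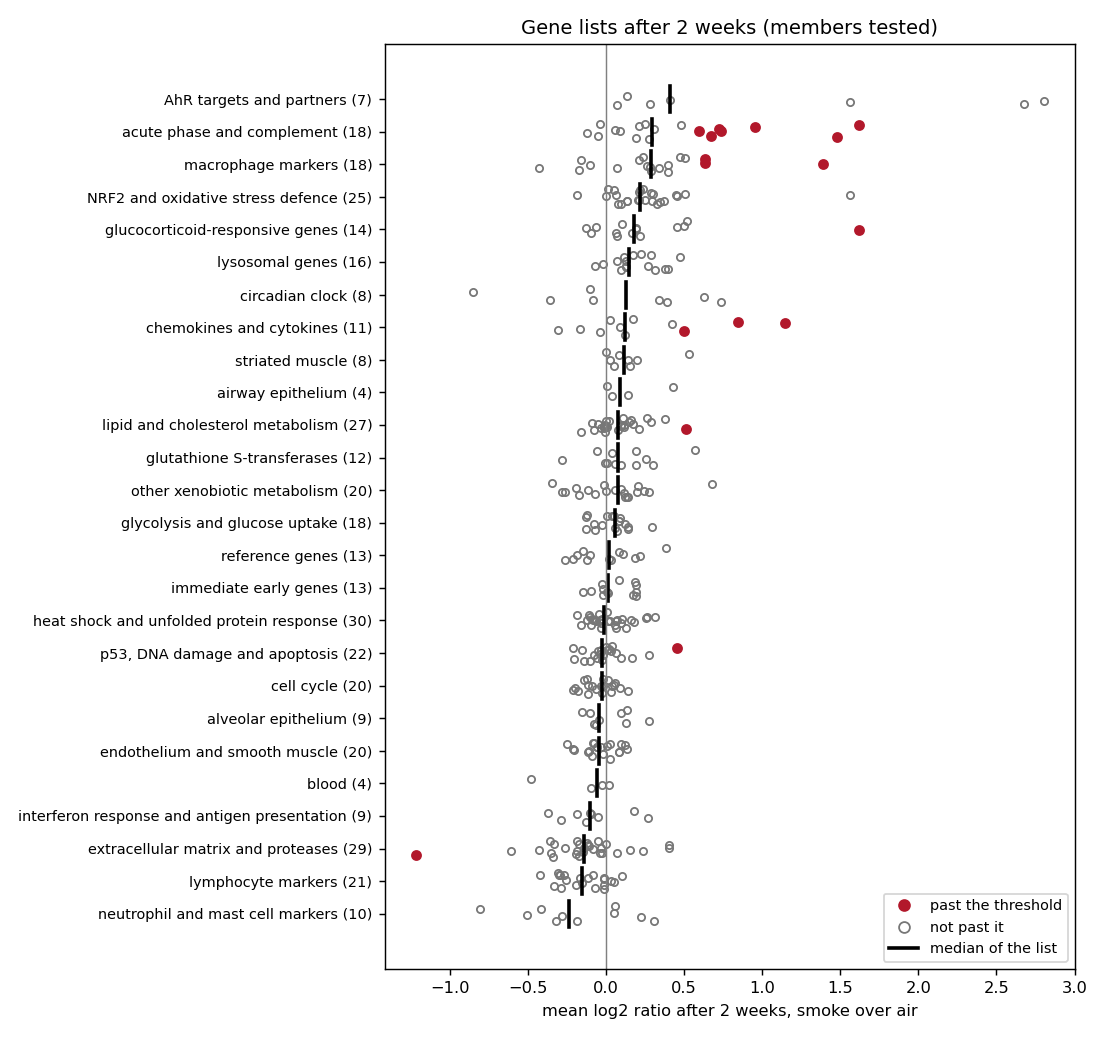
Mean log2 ratio of smoke over air after 2 weeks (horizontal axis) for each tested member of 26 gene lists, ordered by list median (black bar); red points passed the threshold and the number of members tested stands beside each name. The lists with calls include acute phase and complement (7 of 18), macrophage markers (3 of 18) and chemokines and cytokines (3 of 11). The highest points, Aldh3a1 and Cyp1a1 of the AhR list, did not pass, and neither did Nqo1, which lies just below the called Lcn2. Over all genes tested 0.543% passed.

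Between the high and the low dose no single gene passed the threshold at 2 weeks. The 3 differences, high minus low dose, share the control pool of their hour, so that pool cancels. Of 3681 genes 0 passed by limma at an adjusted p under 0.05 (0.0%), and 298 had an unadjusted p under 0.05 (8.1%). The high dose was above the low dose at all 3 hours for 576 genes (15.6%) and below it for 439 (11.9%). Kng2 stood at 0.41, 0.24 and 0.06 at the low dose and at 0.92, 1.35 and 1.06 at the high dose, a difference of 0.87 ± 0.13 (adjusted p = 0.134). Lcn2 differed by 0.79 ± 0.13 (adjusted p = 0.134) and Cxcl1 by 0.59 ± 0.12 (adjusted p = 0.202). Ccl3, Hp and Sod2 differed by 0.57 ± 0.14, 0.57 ± 0.13 and 0.55 ± 0.14 (adjusted p = 0.333 each). Spp1 had the opposite sign, at -1.07 ± 0.22 (adjusted p = 0.235), from a mean of 1.92 at the low dose to 0.86 at the high dose. In the mean over hours Cyp1a1 and Aldh3a1 differed little between the doses, by -0.04 ± 0.15 and -0.13 ± 0.19. Nqo1 was higher at the high dose at all 3 hours, by 0.31 ± 0.11 in the mean (limma adjusted p = 0.539). C3 and Spon2 differed by 0.05 ± 0.13 and 0.07 ± 0.12. With the spread pooled over all weeks of the study, Kng2 alone passed between the doses.

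Later weeks were compared with 2 weeks to see which values belonged to the early time. The 3 hour means of 2 weeks were set against the mean of 7 and 13 weeks, with hours as a covariate, over the 3560 genes with a value in all 18 samples. By limma 17 genes were lower at 2 weeks (0.478%) and 1 was higher (0.0281%), and 328 had an unadjusted p under 0.05 (9.21%). Each week had control pools of its own. The alarmins stood furthest apart. S100a9 had a mean of -0.41 at 2 weeks, 1.16 at 7 weeks and 2.115 at 13 weeks, a difference of -2.05 ± 0.15 (adjusted p = 2.0e-05). S100a8 had means of -0.81, 0.19 and 0.96, a difference of -1.38 ± 0.10 (adjusted p = 2.0e-05). For both genes the mean at every hour was lower at 2 weeks than at the same hour of either later time. Neither passed without the hours covariate (limma adjusted p = 0.161 for S100a9 and 0.373 for S100a8), where Lcn2 and Lgals3 did. At the low dose alone S100a9 passed (limma adjusted p = 0.0294) and S100a8 did not (adjusted p = 0.203). At the high dose alone both passed (limma adjusted p = 0.00011 and 1.6e-05). Lcn2 and Lgals3 passed at neither dose alone (limma adjusted p = 0.267 and 0.192 at the low dose, 0.319 and 0.188 at the high dose).

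**Figure D4:**
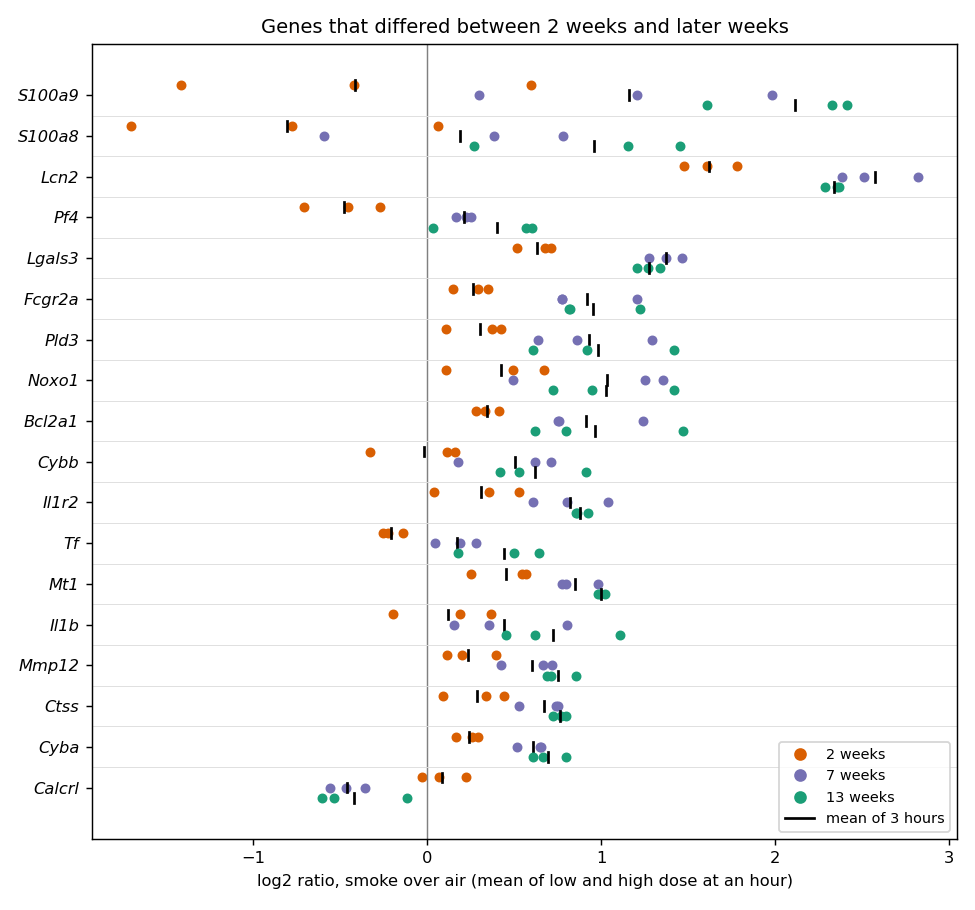
Log2 ratio of smoke over air (horizontal axis) at 2, 7 and 13 weeks for the 18 genes that differed between 2 weeks and the mean of the later weeks; each point is the mean of the low and the high dose at 1 hour and the bar is the mean of the 3 hours. S100a9 and S100a8 are furthest apart, and Calcrl is the only one of the 18 with a higher mean at 2 weeks.

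Genes that were called against air at 2 weeks could still be lower than later. Lcn2 stood at 1.62 at 2 weeks and at 2.57 and 2.335 at 7 and 13 weeks, a difference of -0.83 ± 0.11 (limma adjusted p = 0.00508). Lgals3 stood at 0.63 against 1.37 and 1.27, a difference of -0.69 ± 0.08 (adjusted p = 0.00209). In both genes all 3 hour means of 2 weeks lay below all 6 later ones. Pf4, the platelet chemokine, stood at -0.48 at 2 weeks and at 0.21 and 0.40 later, a difference of -0.79 ± 0.11 (adjusted p = 0.00508). C3, Cxcl1 and Spon2 had differences of -0.08 ± 0.11, -0.22 ± 0.10 and -0.12 ± 0.09 that did not pass. Cyp1a1 differed by -0.72 ± 0.29 (adjusted p = 0.470) and Aldh3a1 by 0.41 ± 0.13 (adjusted p = 0.287). Spp1 stood at 1.39 at 2 weeks and at 0.37 and 0.74 later, a difference of 0.83 ± 0.21 that missed the threshold (adjusted p = 0.158).

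The other genes of this comparison are given by their means at 2, 7 and 13 weeks. The Fc receptor Fcgr2a stood at 0.26 at 2 weeks and at 0.92 and 0.95 later, a difference of -0.67 ± 0.11 (limma adjusted p = 0.0298). The phospholipase family member Pld3 stood at 0.30, 0.93 and 0.98, and the apoptosis inhibitor Bcl2a1 at 0.34, 0.915 and 0.96. Of the NADPH oxidase, the catalytic subunit gene Cybb stood at -0.02, 0.50 and 0.62, its partner Cyba at 0.24, 0.61 and 0.69, and the organiser Noxo1 at 0.42, 1.03 and 1.03. The decoy receptor Il1r2 stood at 0.31, 0.82 and 0.88, the iron carrier transferrin Tf at -0.21, 0.17 and 0.44 and the metallothionein Mt1 at 0.45, 0.85 and 1.00. The cytokine Il1b stood at 0.12, 0.44 and 0.725, the lysosomal protease Ctss at 0.29, 0.67 and 0.76 and Mmp12 at 0.24, 0.60 and 0.75. Il1r2, Tf, Mt1, Il1b, Ctss and Cyba were named after their values were seen. Calcrl, a receptor of endothelium for vasodilator peptides, was the 1 gene higher at 2 weeks, at 0.085 against -0.46 and -0.42, a difference of 0.525 ± 0.10 (adjusted p = 0.0426). Of 10 tested neutrophil and mast cell markers 3 were lower at 2 weeks (S100a8, S100a9 and Il1r2), and of 18 macrophage markers 3 (Lgals3, Ctss and Mmp12), where 0.478% of all genes tested were lower. Counts fell to 3 without the 2-week samples of 2 hours, to 5 without those of 20 hours and to 10 without those of 6 hours. They fell to 5 without the pool of 13 weeks and 20 hours, to 5 without that of 7 weeks and 6 hours and to 7 without that of 7 weeks and 20 hours. Without all samples of 2, 6 or 20 hours the counts were 11, 5 and 3. S100a8, S100a9 and Lgals3 passed whichever of the 9 control pools was left out.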

How the data were processed

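The authors deposited 1 table of log2 ratios (11994 rows), which has values of all 18 samples of whole rat lung. Per the labels' protocols, pooled and linearly amplified RNA was labelled with Cy5 (smoke) and Cy3 (air) and divided over 2 arrays. Background correction, normalization and spot filters were not given in the sources used here. A check of the unit took the 257 values under -1, and 100% of them could be written as log2 of a ratio with 2 decimals. The 153 empty rows were dropped, rows that repeat 1 probe were merged, and the probes of a gene were averaged (111 genes have several). Symbols come from a separate assignment of probes to genes, matched by gene identifier to RefSeq names where found. In R 4.3.3, limma 3.58.1 (lmFit, eBayes, two-sided) tested the mean of 3 hour means against 0, the 3 dose differences against 0, and 2 weeks against the mean of 7 and 13 weeks with hours as a covariate, adjusted by Benjamini-Hochberg over all genes tested. Errors are limma's moderated standard errors, which draw each gene's spread toward that of all genes. The fits were tested on simulated data. Of 50 genes with a true log2 change of 0.5, 32 were called against air and 30 against later weeks. With a true change of 1, 49 of 50 were called in either fit. Of 3360 unchanged genes, 6 were called against air and 11 against later weeks. P values measure only the spread between these pools, not between single rats. Against air and between doses that spread also holds real change with hours.

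The rule names the 12 largest changes in each direction with 1 sign in all 6 samples (filled up with genes that missed the threshold), up to 4 called members of each of 26 gene lists or otherwise 2 as values, up to 6 and 10 a direction between doses and weeks, and 20 fixed genes such as Cyp1a1 and Spon2. Other genes given as values were chosen after these were seen. Members and lists were chosen with earlier results of these data known. Alternatives left out hours, samples or pools, used 1 dose, every probe, genes with 2 of 3 hours, centred arrays, a 1.5-fold limit, another prior or spread, a block for the pool (statmod 1.5.0), and a sign-flip permutation test. Python 3.11.15 with matplotlib 3.10.9 drew the figures.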

Additional observations from a re-analysis of the deposited data

Results flagged for a closer look

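The change against air differed between 2 weeks and the later weeks, by the limma test of the difference itself, in 18 genes. The differences, 2 weeks minus the mean of 7 and 13 weeks, were largest for S100a9 (-2.05) and S100a8 (-1.38), genes of neutrophils and monocytes. They were -0.83 for Lcn2, -0.79 for Pf4, -0.69 for Lgals3, -0.67 for Fcgr2a, -0.65 for Pld3, -0.61 for Noxo1 and -0.60 for Bcl2a1. Smaller differences were found for Cybb (-0.58), Il1r2 (-0.54), Tf (-0.51), Mt1 (-0.47), Il1b (-0.46), Mmp12 (-0.44), Ctss (-0.43) and Cyba (-0.41). Calcrl differed by 0.525. S100a8, S100a9, Lgals3 and Lcn2 also passed against 7 weeks alone, with limma adjusted p of 0.00346, 0.00346, 0.00457 and 0.00575, and against 13 weeks alone. Il1b passed in 0 of the 9 fits that leave out a control pool, with an adjusted p of 0.041 over all pools.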

How the results depend on the processing

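Against air, 20 genes passed. The count was 58 with the 6 samples and the pool as a block, 35 with a robust prior, 106 with the spread pooled and hours as a covariate, 5 at the high dose alone and 0 at the low dose alone (357 with an unadjusted p under 0.05). It was 0 by the exact sign-flip permutation test of 3 hour means, whose smallest p is 0.25. Leaving out an hour gave 2 to 4 and leaving out a sample 2 to 26. The other 5 alternatives gave 14 to 21. Between the doses the count was 0, and 1 with the spread pooled over weeks. Against later weeks 18 passed. The count was 8 against 13 weeks alone, 4 against 7 weeks alone, 8 with genes of at least 2 of 3 hours, 8 with every probe on its own, 3 at the high dose alone, 1 at the low dose alone and 2 without the hours covariate. Leaving out an hour gave 3 to 11 and leaving out a control pool 3 to 24, the latter chosen after seeing the data, as was leaving out a sample. The cause of these shifts was not tested.

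Means near 0 turned sign at the high dose alone for Calcrl (-0.0333) and Cybb (0.0567). Over the fits that leave out an hour or a sample, the mean ranged from -0.295 to 0.11 for Hbb, from -0.1075 to 0.1375 for Cybb, from -0.0025 to 0.2775 for Il1b, from -0.9175 to 0.0875 for S100a9, from -0.055 to 0.17 for Cyp1b1 and from -0.03 to 0.21 for Ccl2. The control pool paired the doses in the dose differences and was the block above.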

Other observations

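Probes without a gene symbol were tested apart from the named genes. Of 872 with a value in all 6 samples of 2 weeks, 0 passed limma and 111 had an unadjusted p under 0.05 (12.7%). Among named genes outside the lists, with no call, the sodium pump subunit Atp1b1 stood at 0.73 ± 0.13 (limma adjusted p = 0.0624), the glutathione-degrading enzyme Ggt1 at 0.75 ± 0.14 (adjusted p = 0.0712) and Enpp2, which makes lysophosphatidic acid, at 0.635 ± 0.11 (adjusted p = 0.0614). Ndrg4 stood at 1.41 and 1.55 at 2 hours and between 0.10 and 0.63 later. The high-dose sample of 6 hours had values for 4583 genes, the most of the 6, and the low-dose sample of that hour 3919, the fewest. These genes and values were chosen after they were seen.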
